A study of Mus musculus with 6 samples.

Results

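A small set of nuclei with microglial genes in the neonatal mouse brain carried transcripts of Oasl2, Usp18 and Oas2, 3 genes that are switched on by interferon, and these nuclei are described here. Single nuclei were sequenced from 6 NeuN-negative libraries, that is from nuclei sorted for the absence of the neuronal protein NeuN, 3 from LPA-injected and 3 from vehicle-injected C57BL/6 S-56 neonates. All pups received 5 µl into the right lateral ventricle at postnatal day 7, either 18:1 lysophosphatidic acid (LPA, a signalling lipid present in blood) in a 0.01% bovine serum albumin carrier or the carrier alone, and brains without olfactory bulbs and cerebellum were collected at postnatal day 15. LPA injection served as a model of post-hemorrhagic hydrocephalus.

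A nucleus was kept when it had at least 300 genes and at most 1% mitochondrial UMIs (unique molecular identifiers, each counting 1 captured RNA molecule). It counted as positive when P2ry12, Cx3cr1, Siglech, Csf1r and Inpp5d summed to at least 3 UMIs, Oasl2, Usp18 and Oas2 to at least 2, Spp1 and Gpnmb to at most 1, and F13a1 to at most 1. This gave 63 positive nuclei of 60724 kept nuclei and 63383 barcodes. The comparison nuclei were the 3827 that met the same microglial, Spp1/Gpnmb and F13a1 limits with fewer than 2 UMIs of the 3 interferon genes. The LPA libraries 1, 2 and 3 held 16, 8 and 22 positive nuclei, and the vehicle libraries 1, 2 and 3 held 4, 10 and 3. The library totals were 50737541, 53380143 and 54715094 UMIs for LPA and 48852970, 65688644 and 55864168 for vehicle.

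Type I interferons signal through the receptor pair IFNAR1 and IFNAR2 and the kinases JAK1 and TYK2 to transcription factors, STAT2 among them, which enter the nucleus and bind interferon-stimulated response elements in promoters. The induced genes encode nucleic acid sensors, antiviral effectors, ubiquitin-like modifiers and antigen presentation proteins, and some of them damp the response again. Oas2 makes the messenger that activates RNase L, Oasl2 belongs to the same family, and Usp18 removes ISG15 from proteins and restrains the receptor. Interferon-responsive microglia are known from developing, aged and injured brain.

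Promoter stretches of 4 interferon genes are shown to give the sequence element through which genes of this response are known to be switched on. Windows of 250 bases before to 50 bases after the RefSeq start (build GRCm38.p6) were searched for the core of the response element, GAAA, any 2 bases and GAAA again, on both strands (on the other strand TTTC, any 2 bases and TTTC), overlapping matches included. The core was present in 1131 of 32851 windows (3.443%), or in 1079 of the 27025 genes with a window (3.993%). Of the 116 interferon genes in the 8 lists used below, 91 had a window and 41 of those (45.05%) held the core, among them all 9 interferon-induced GTPases with a window and 17 of 31 antiviral effectors, against 1 of 22 homeostatic microglial genes. Ddx60, an RNA helicase of the antiviral response, had 2 cores close to its start, and Trim30a, a ubiquitin ligase family member, had 1 in each of its 2 windows, of which 1 is shown. Both were called higher in positive nuclei in the test described below. Isg15, the ubiquitin-like modifier that Usp18 removes, had 3 overlapping cores, and Irgm1, an interferon-induced GTPase, had 2. The stretches read 5′ to 3′ along the gene, with the cores in capitals.
Ddx60 (chr8:61928014-61928086, plus strand): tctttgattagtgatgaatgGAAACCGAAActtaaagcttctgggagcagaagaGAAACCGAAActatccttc
Trim30a (chr7:104465200-104465249, minus strand): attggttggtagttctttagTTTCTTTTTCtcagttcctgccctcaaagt
Isg15 (chr4:156200855-156200916, minus strand): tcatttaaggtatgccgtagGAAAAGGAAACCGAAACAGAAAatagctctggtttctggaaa
Irgm1 (chr11:48871421-48871470, minus strand): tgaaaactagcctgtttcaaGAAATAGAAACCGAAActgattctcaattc
No core was found in the windows of Rnf213, Sp100, Herc6 and Oasl2. A match describes these letters only and is not evidence of binding.

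The 3 interferon genes chose the nuclei, so their values are a description. Oasl2 was present in 44 of the 63 positive nuclei with 94 UMIs, Usp18 in 30 with 50 UMIs and Oas2 in 22 with 37 UMIs. Oasl2 was the only one of the 3 in 19 nuclei, Oasl2 with Usp18 was found in 15, Oas2 alone in 8, Usp18 alone in 7, Oasl2 with Oas2 in 6, Usp18 with Oas2 in 4 and all 3 genes in 4. The 8 nuclei with Oas2 alone and the 6 with Oasl2 and Oas2 all came from LPA libraries, which supplied 46 of the 63 nuclei. Most nuclei sat at the limit, since 40 had 2 UMIs of these genes, 11 had 3, 5 had 4, 3 had 5, 3 had 6 and 1 had 15. Just outside it, 166 nuclei had 1 UMI and 3661 had none. At the microglial limit 13 positive nuclei had exactly 3 UMIs, and 14 nuclei that met every other limit had 2. At the upper limits 6 positive nuclei had 1 UMI of Spp1 or Gpnmb and 4 had 1 of F13a1, with no nucleus at 2 UMIs of either. With more than 2 UMIs, 5 nuclei were left out by Spp1 and Gpnmb and 19 by F13a1.

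The microglial label held for only part of the set. A list of 30 homeostatic microglial genes outside the rule was compared in each nucleus with 58 markers in 7 lists of other brain cells (oligodendrocytes and their precursors, astrocytes, neurons, endothelial, mural and meningeal, and ependymal and choroid plexus cells). In 25 of the 63 positive nuclei the microglial list had more UMIs than all other lists together, and these are called microglia-led. In the other 38 it did not. By their most abundant list, 11 of those 38 were led by neuronal, 10 by astrocyte, 8 by oligodendrocyte, 4 by precursor, 2 by endothelial and 2 by ependymal markers, and 1 by the microglial list. The 38 nuclei had a median of 12213 UMIs against 2132 in the 25, and all 22 positive nuclei above 10000 UMIs were among them. Scrublet, which scores nuclei against simulated doublets, marked 31 of the 38 and 3 of the 25. Among the 3827 other microglial nuclei 1597 (41.7%) were microglia-led, and Scrublet marked 43.1% of all of them. Because of this the positive nuclei are called by their genes, and the main comparisons are given with and without the nuclei that carried more markers of other cells.

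The microglia-led positive nuclei numbered 8, 3 and 10 in LPA libraries 1 to 3 and 0, 3 and 1 in vehicle libraries 1 to 3. Their median of 2132 UMIs compares with 1742 in the other microglia-led nuclei. The nucleus with the most rule UMIs, 13 of Oasl2 and 2 of Usp18 in LPA library 3, had 3 UMIs of the microglial rule genes, 2 of the microglial list and 269 of the markers of other cells. It also held 75 UMIs of interferon genes outside the rule, so a high interferon reading was not limited to nuclei led by microglial genes.

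The interferon response outside the rule genes was read from 8 lists with 112 genes in the files. Over all 63 positive nuclei these genes made up 28.5 of every 10000 UMIs, against 15.5 in the other microglial nuclei. In microglia-led nuclei the levels were 119 and 40.3 per 10000. Single microglia-led positive nuclei ranged from 22.1 to 353 per 10000 with a median of 99.6, and 22 of the 25 lay above the pooled 40.3 of the other microglia-led nuclei. Of the 38 nuclei with more markers of other cells, 28 lay above the 12.5 of their counterparts among the other nuclei. The highest level per 10000 UMIs, 353, was that of a vehicle 2 nucleus with 115 interferon UMIs of 3257, and the next highest were 253 and 249 in 2 nuclei of LPA library 2.

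**Figure D1:**
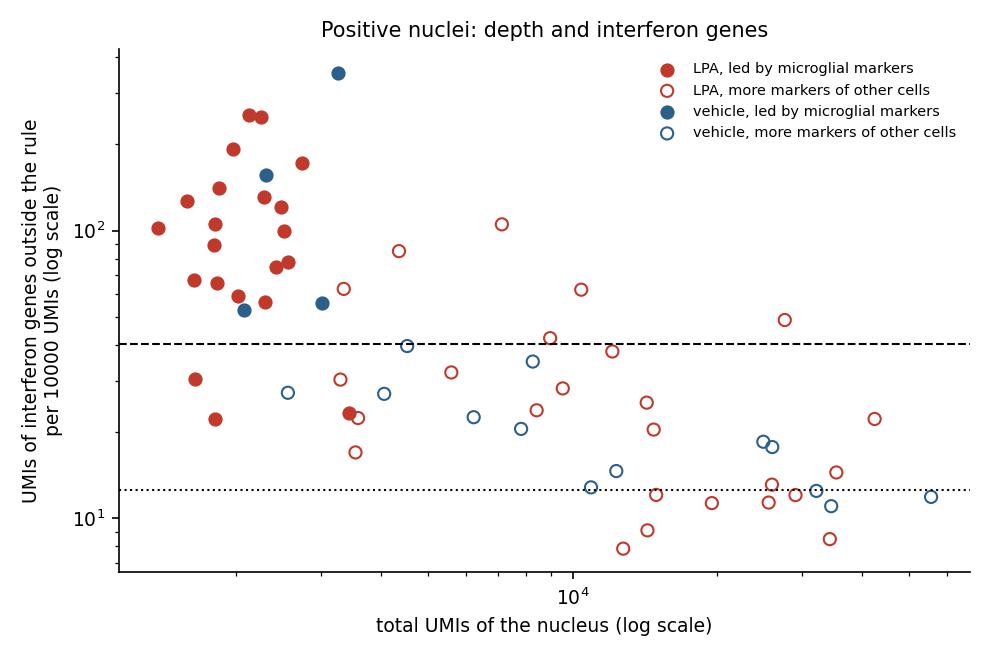
Each point is 1 of the 63 positive nuclei, with its total UMIs on the horizontal axis and the UMIs of interferon genes outside the rule per 10000 UMIs on the vertical axis, both on log scales. Filled points are the 25 microglia-led nuclei, open points the 38 with more markers of other cells, and the dashed and dotted lines mark the pooled levels of the corresponding other nuclei, 40.3 and 12.5 per 10000; the filled points lie at low depth and mostly above the dashed line.

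In microglia-led nuclei the interferon reading was graded with the rule UMIs up to the limit and just above it. In microglia-led nuclei with 0 UMIs of Oasl2, Usp18 and Oas2 the other interferon genes made up 39.1 per 10000 UMIs (1543 nuclei), with 1 UMI 65.8 (54 nuclei), with 2 UMIs 91.2 (16 nuclei) and with 3 UMIs 106 (4 nuclei). The single nucleus with 4 UMIs had 121, the 2 with 5 had 311 and the 2 with 6 had 121. The nuclei with 1 UMI, which the rule leaves out, thus lay between those with none and those with 2. Over all nuclei the levels were 15.2 with 0 UMIs, 18.8 with 1, 22.7 with 2, 20.0 with 3, 32.5 with 4, 148 with 5, 58.1 with 6 and 105 in the nucleus with 15, so the levels there were not in order from 2 to 3 UMIs nor above 5. These are pooled levels over nuclei of several libraries and carry no test.

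**Figure D2:**
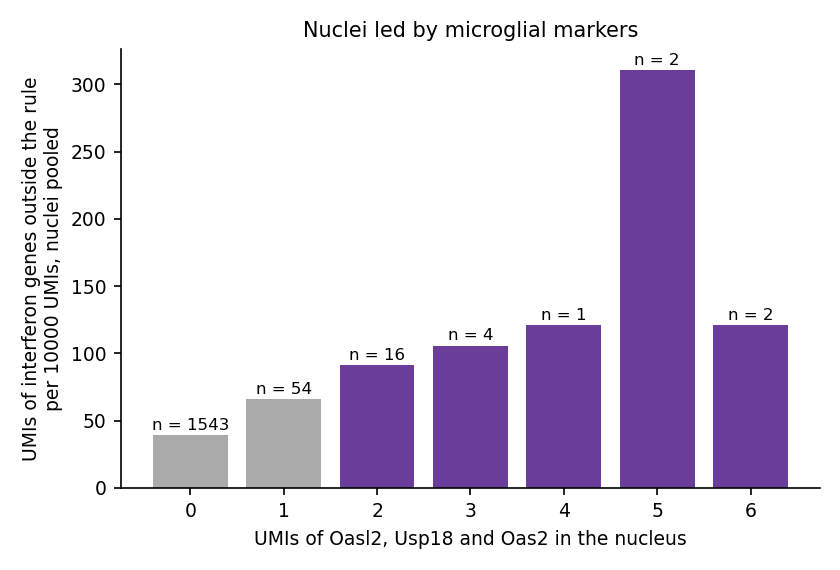
Bars give the UMIs of interferon genes outside the rule per 10000 UMIs, pooled over microglia-led nuclei, by the number of Oasl2, Usp18 and Oas2 UMIs in the nucleus. Grey bars are outside the rule and purple bars inside, n is the number of nuclei, and the level rises from 39.1 at 0 UMIs to 106 at 3 UMIs.

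By library, the microglia-led positive nuclei held 99.5, 218 and 82.8 interferon UMIs per 10000 in LPA libraries 1 to 3, against 40.4, 42.0 and 44.7 in the other microglia-led nuclei. Vehicle library 1 had no such nucleus, and vehicle libraries 2 and 3 gave 196 and 53.0 against 36.7 and 33.1. Every library with a microglia-led positive nucleus thus had the higher level in it. Over all 63 nuclei the values were 27.7, 35.5 and 32.8 in LPA and 12.1, 29.4 and 39.0 in vehicle, against 16.1, 18.7 and 16.9 and 12.2, 13.8 and 14.2 in the other nuclei. In vehicle library 1, where all 4 positive nuclei carried more markers of other cells, the positive nuclei did not exceed the others.

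Positive nuclei made up a low share of the microglial nuclei in both groups. The share was 1.97%, 0.936% and 3.46% in LPA libraries 1 to 3 (16 of 813, 8 of 855 and 22 of 636), and 1.12%, 1.11% and 0.912% in vehicle libraries 1 to 3 (4 of 356, 10 of 901 and 3 of 329). LPA libraries 1 and 3 were above all vehicle libraries and LPA library 2 was inside the vehicle range. The group means were 2.12% ± 1.27 (SD, n = 3) and 1.05% ± 0.118 (SD, n = 3), a difference of 1.07 percentage points that was within the spread between libraries (two-sided exact permutation test over libraries, p = 0.3, smallest possible 0.1). The exact 95% binomial intervals, which cover counting error only, were 1.13 to 3.18%, 0.405 to 1.84% and 2.18 to 5.19% for LPA and 0.307 to 2.85%, 0.533 to 2.03% and 0.188 to 2.64% for vehicle. Without LPA library 3 the difference was 0.403 points and without LPA library 2 it was 1.67 points.

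Among microglia-led nuclei only, the share was 2.44%, 0.719% and 3.22% in LPA and 0%, 0.882% and 0.943% in vehicle, again with LPA library 2 inside the vehicle range (exact permutation p = 0.3, n = 3 and 3). With these nuclei thinned to 1500 UMIs and shallower ones left out, the shares were 1.64%, 0.692% and 2.58% in LPA and 0%, 0.852% and 3.23% in vehicle, and the difference fell from 1.52 to 0.277 points (exact permutation p = 0.8, n = 3 and 3). The vehicle 3 share rests on 1 positive nucleus among 31, and the difference was 1.21 points without that library, -0.40 without vehicle library 1 and -0.19 without LPA library 3. The vehicle 1 value of 0 of 120 nuclei allows a share of up to 2.5% by the limit of 3 counts, and the exact two-sided interval in the plot of shares reaches 3.03%. When the nuclei marked by Scrublet were left out, 29 positive nuclei remained, with shares of 2.18%, 0.945% and 3.04% in LPA and 0%, 0.224% and 0.562% in vehicle. Scrublet had marked 6 of 16, 3 of 8 and 10 of 22 positive nuclei in LPA and 4 of 4, 9 of 10 and 2 of 3 in vehicle. The removal was thus unequal between the groups and left very few vehicle positive nuclei. The groups then did not overlap, which gives the smallest p that the design allows (exact permutation p = 0.1, n = 3 and 3). Over all microglial nuclei thinned in the same way the shares averaged 0.875% ± 0.544 in LPA and 0.306% ± 0.186 in vehicle (exact permutation p = 0.2, n = 3 and 3). Fewer vehicle than LPA nuclei were microglia-led (566 against 1056), and their median depth was 1474.5 against 1849 UMIs.

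**Figure D3:**
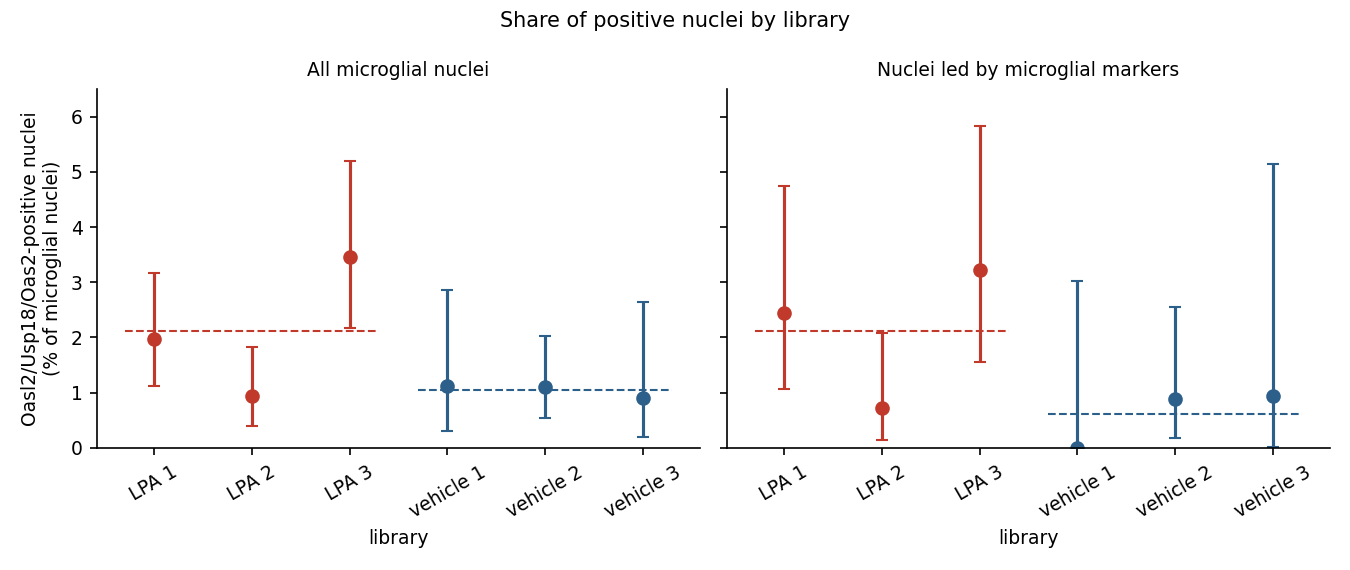
Points give the share of positive nuclei in each library as a percentage of all microglial nuclei (left) and of microglia-led nuclei (right), with exact 95% binomial intervals, and dashed lines the group means. LPA libraries 1 and 3 lie above all vehicle libraries in both panels, while LPA library 2 lies among them.

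Reads of the 3 genes in nuclei of other types were taken as a background. Those nuclei had 0 UMIs of the microglial rule genes, and at least 5 UMIs of their own list. That list also had at least 3 times the UMIs of the next list. The microglial nuclei as a whole had no such limit on markers of other cells, so the 2 selections are unlike. At least 2 UMIs of them were found in 0.137% of neuronal nuclei (median 5518 UMIs), 0.276% of oligodendrocyte nuclei (median 5507 UMIs), 0.381% of precursor nuclei (median 3290 UMIs) and 0.448% of astrocyte nuclei (median 3163 UMIs), against 1.62% of microglial nuclei (median 4309.5 UMIs) and 1.54% of microglia-led nuclei (median 1746 UMIs). Endothelial nuclei (1.66%, median 2477.5 UMIs) and mural and meningeal nuclei (1.42%, median 2608.5 UMIs) were at a similar share to microglia, so the reading was not limited to microglia. Nuclei with at least 2 UMIs of F13a1, a gene of border macrophages that the rule leaves out, had a share of 7.20% (19 of 264, exact 95% interval 4.39 to 11.01%, median 4828.5 UMIs). Per 10000 UMIs the 3 genes stood at 0.407 in F13a1 nuclei, 0.403 in microglia-led nuclei, 0.118 in all microglial nuclei, 0.431 in mural and meningeal nuclei and 0.313 in endothelial nuclei. Microglia with at least 2 UMIs of Spp1 and Gpnmb, markers of an activated state, had 1.41% (5 of 354). Of these 354 nuclei 347 came from LPA libraries (5 of 347, 1.44%) and 7 from vehicle libraries (0 of 7). The LPA microglial nuclei under that limit had 2.00% (46 of 2304). With the 354 nuclei added to the denominators, the LPA share of positive nuclei exceeded the vehicle share by 0.781 points (exact permutation p = 0.4).

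The genes outside the rule were then compared between positive and other nuclei of the same library. UMIs were summed by library and kind, and tested with edgeR's quasi-likelihood test with the library as a block and Benjamini-Hochberg adjustment over all 11124 genes tested. Calls needed a log2 fold of 0.25 or more besides an adjusted p below 0.05. The test called 18 genes higher and 9 lower in positive nuclei (0.162% and 0.0809% of genes tested). The interferon lists held 45 of the tested genes, of which 7 were called higher and none lower, 40 had a positive log2 fold and the median log2 fold was 0.71, against 40.7% positive and a median of -0.07 over all genes tested. At an unadjusted p under 0.05, 18 of the 45 were higher and none lower, against 1.99% of all genes tested that were higher. The nuclei were chosen on 3 genes of the same response, so these values describe which other genes of it were read in the same nuclei. The count filter acted on positive and other sums together. Genes with few UMIs in other nuclei, Sp100 and Ddx60 among them, could thus have entered the test through the positive nuclei. The counts of calls and of positive log2 folds over the 45 genes depend in part on that filter, which was the same for all genes tested.

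No UMI of 14 interferon ligand genes was found in positive nuclei, among 675824 UMIs, which allows up to 0.0444 per 10000 UMIs. The other nuclei stood at 0.00801 per 10000, under that limit, so no difference was detectable at this depth. The receptor chains and kinases, which exist before the response, were at 3.86 per 10000 UMIs in positive and 4.02 in other nuclei, and 0 of 8 tested genes passed in either direction with edgeR or DESeq2, none at an unadjusted p under 0.05. The level in microglia-led nuclei was 7.99 against 9.28 per 10000.

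Of the transcription factors 1 of 7 tested genes was called higher and none lower with edgeR, while DESeq2 called 0 of 7. Of those that were not called, Stat2, which takes part in the nuclear step of the signal, was above the other nuclei in all 6 libraries with a log2 fold of 0.98 ± 0.25 but did not pass (edgeR adjusted p = 0.06), and Irf8, a factor that microglia express without interferon, had a log2 fold of 0.14 (edgeR adjusted p = 0.998).

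Of the antiviral effectors 3 of 11 tested genes were called, all higher, and the list's median log2 fold was 1.22. Ddx60 (chr8:61928087-62038244 in GRCm38) had 24.8, 163 and 245 CPM (UMIs scaled to a common library total, TMM-normalised) in positive nuclei of LPA libraries 1 to 3 and 92.0, 264 and 0 in vehicle libraries 1 to 3. The other nuclei had 27.6, 31.5 and 34.7 in LPA and 5.98, 10.2 and 12 in vehicle. It was higher in 4 of 6 libraries, with a log2 fold of 2.85 ± 0.30 (SE, edgeR adjusted p = 4.24e-12), and 1 vehicle 2 nucleus gave 28 of its 108 UMIs. DESeq2 gave a log2 fold of 2.61 and no call (adjusted p = 0.1207). Rnf213, a large ubiquitin ligase with antimicrobial activity (chr11:119393100-119487418), had 165, 288 and 216 CPM in positive nuclei of LPA and 40.9, 128 and 290 in vehicle, against 35.7, 55.6 and 48.2 and 32.1, 32.8 and 26.6 in the other nuclei. All 6 libraries were higher, the log2 fold was 2.11 ± 0.23 (SE, edgeR adjusted p = 1.39e-11), and the 115 UMIs came from 40 nuclei. It was called in all 16 alternatives tried. Trim30a had 82.7, 138 and 75.3 CPM in LPA and 10.2, 68.0 and 166 in vehicle positive nuclei, was higher in 5 of 6 libraries, and had a log2 fold of 1.22 ± 0.30 (SE, edgeR adjusted p = 0.0425). It was called in only 4 of 16 alternatives, and leaving out any library but vehicle library 1 ended the call (adjusted p up to 0.1586). Epsti1 and Eif2ak2, the kinase PKR that shuts down translation on viral RNA, had log2 folds of 1.33 and 1.08 and did not pass (edgeR adjusted p = 0.124 and 0.15).

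Several smaller lists gave 1 call each. Sp100, a component of PML nuclear bodies, had 38 UMIs in 20 positive nuclei and was higher in 5 of 6 libraries. Its log2 fold was 2.55 ± 0.39 (SE, edgeR adjusted p = 2e-06). The count filter could have admitted Sp100 through the positive nuclei, where it was high, and it stayed called without that filter. The other 4 nuclear body genes tested were also positive without passing. Parp14, an ADP-ribosyltransferase, had 40 UMIs in 19 nuclei and a log2 fold of 1.71 ± 0.35 (SE, edgeR adjusted p = 0.00325), and the call ended with no library block (adjusted p = 0.2976) and without LPA library 2 (0.05984) or vehicle library 2 (0.07032). Herc6, the mouse ligase that attaches ISG15, had 44 UMIs in 27 nuclei, was higher in all 6 libraries and had a log2 fold of 1.58 ± 0.33 (SE, edgeR adjusted p = 0.00407), and the adjusted p was 0.3516 without LPA library 2, 0.2882 with no library block and 0.1838 with a limit of 3 rule UMIs.

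Some lists had no call with either edgeR or DESeq2. Of the nucleic acid sensors 0 of 7 tested genes passed, and Ddx58, which encodes the RNA sensor RIG-I, had a log2 fold of 0.95 (edgeR adjusted p = 0.807) and was the 1 sensor with an unadjusted p under 0.05. The 2 tested interferon-induced GTPases, both with an unadjusted p under 0.05, and all 6 tested antigen presentation genes, none of them under it, had a positive log2 fold. No chemokine gene had enough UMIs to be tested, with 24 UMIs over 5 of 8 genes in positive nuclei.

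**Figure D4:**
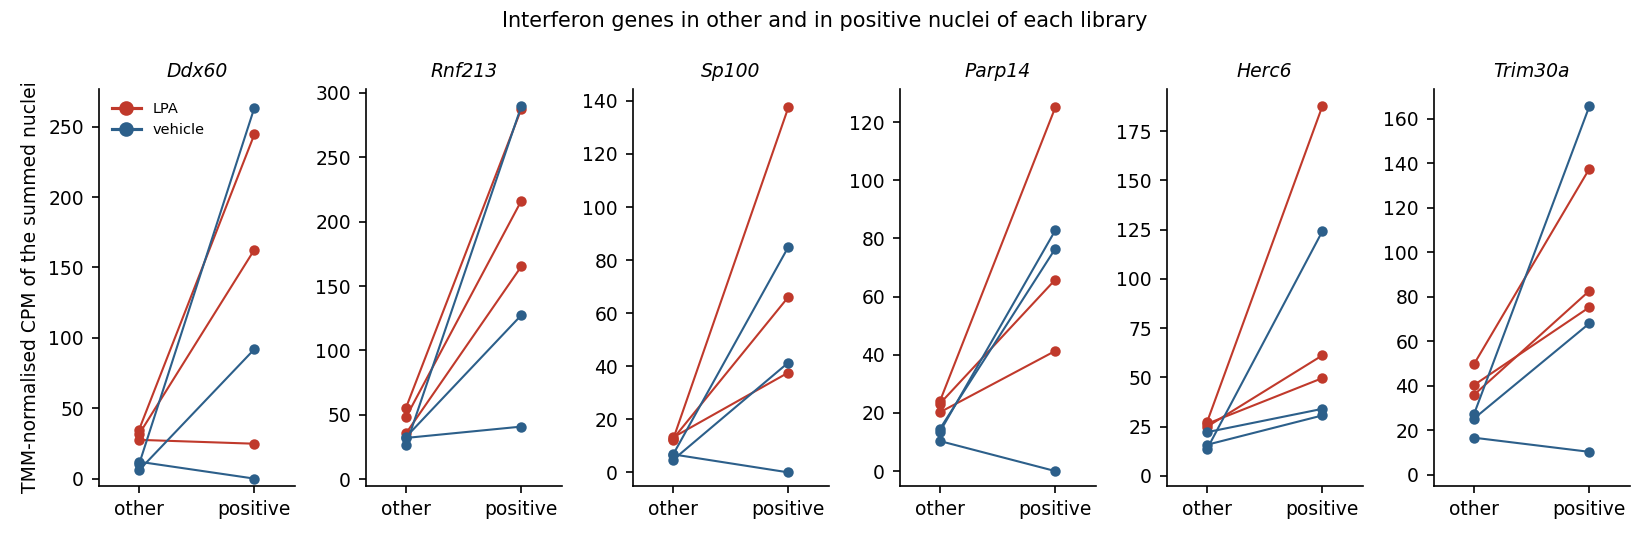
Lines join the TMM-normalised CPM of the other nuclei and of the positive nuclei in each library for 6 interferon genes called higher, with LPA libraries in red and vehicle libraries in blue. Rnf213 and Herc6 rise in all 6 libraries, while Ddx60 rises in 4 of 6 and its positive nuclei of vehicle library 3 are at 0.

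A gene that overlaps Rnf213 was also called. A930037H05Rik, a noncoding gene (chr11:119448788-119491298, minus strand), lies on the opposite strand to Rnf213, and its log2 fold was 1.88 ± 0.31 (SE, edgeR adjusted p = 1.73e-05) with all 6 libraries higher, and without LPA library 3 the adjusted p was 0.05904. Counts were made from a 3′ kit with Cell Ranger's default settings, which assign reads by strand.

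The remaining calls lay outside the interferon lists. Higher by the lowest adjusted p in positive nuclei were Slco1a4, an organic anion transporter of brain endothelium (log2 fold 1.32 ± 0.27, edgeR adjusted p = 0.00222), the matrix protein gene Fn1 (1.48 ± 0.25, adjusted p = 4.16e-05) and Trabd2b, a Wnt protease gene (1.57 ± 0.26, adjusted p = 1.87e-05). Their 74, 81 and 74 UMIs came from 13, 17 and 13 nuclei, and the microglia-led positive nuclei held 0, 0 and 1 of them. Slco1a4 lost its call with DESeq2 (adjusted p = 0.9996) and without vehicle library 2 (0.06357), and Slco1a4, Fn1 and Trabd2b all lost it with a limit of 3 rule UMIs. Without the nuclei marked by Scrublet the adjusted p was 0.1768 for Slco1a4 and 0.4123 for Fn1, and with nuclei thinned to 1500 UMIs it was 0.8499 and 0.2948. The other 7 genes called higher were Eln, Bnc2, Sema3c, Gm5127, Mecom, Rbpms and Itgbl1. Of the endothelial list 2 of 7 tested genes (Slco1a4 and Mecom) were called higher, and its summed level was 6.44 per 10000 UMIs in positive and 3.23 in other nuclei, with Mecom the most abundant gene. By library it was higher in the 3 LPA libraries and vehicle library 2 and lower in vehicle library 1 (0.483 against 4.27) and vehicle library 3 (0 against 3.66), and LPA library 2 had the largest value (14.3 against 4.05). In microglia-led nuclei it was 0.908 and 1.42. Of the mural and meningeal list edgeR called 0 of 8 tested genes. At an unadjusted p under 0.05, 3 were higher and none lower, against 1.99% of all genes tested that were higher. In microglia-led nuclei that list stood at 6.35 per 10000 UMIs in positive and 2.41 in other nuclei. It was higher in LPA library 1 (8.48 against 2.09) and vehicle libraries 2 and 3 (15.1 against 3.32 and 33.7 against 6.05). In LPA libraries 2 and 3 it was 0 against 1.31 and 1.23. Lower were Htr2c, a serotonin receptor abundant in choroid plexus (log2 fold -2.38 ± 0.26, edgeR adjusted p = 6.26e-12), Otx2os1 (-3.00 ± 0.42, adjusted p = 2.06e-07) and Ttr, the thyroid hormone carrier of choroid plexus (-2.03 ± 0.30, adjusted p = 9.9e-07). DESeq2 called neither Otx2os1 (adjusted p = 0.09502) nor Ttr (0.1302), and 28 of the 39 Ttr UMIs in positive nuclei came from 1 nucleus. The ependymal and choroid plexus list stood at 3.51 per 10000 UMIs in positive and 9.06 in other nuclei, and at 2.54 and 1.78 in microglia-led nuclei. Gmnc, Tafa1, Reln, Cnksr3, Gm2629 and Strip2 were the other genes called lower, and each of the 6 lost its call under at least 2 alternatives. The part of these other cells in the calls was not tested.

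With only the microglia-led nuclei, an alternative chosen after the data were seen, 2171 genes could be tested and 3 were called higher and 1 lower (0.138% and 0.0461% of genes tested). Of 9 interferon genes tested 2 were called higher, Ddx60 with a log2 fold of 3.21 (edgeR adjusted p = 3.2e-10) and Rnf213 with 2.92 (adjusted p = 1.8e-10). A single nucleus of vehicle library 2 gave 28 of the 56 Ddx60 UMIs in these positive nuclei. The third was A930037H05Rik (2.60, adjusted p = 0.011), which was not called without vehicle library 3 (adjusted p = 0.2399), and the gene called lower was Nav3, a neuronal navigator protein gene (-1.72, adjusted p = 0.011). Trim30a had a log2 fold of 1.66 and did not pass (adjusted p = 0.062). Few genes reached the count filter because the 1 microglia-led nucleus of vehicle library 3 had 2076 UMIs. Without that library 5835 genes were tested, of which 0.12% were called higher and 0.0171% lower. Of 41 interferon genes tested, Ddx60, Rnf213, Sp100 and Parp14 were among those called higher, with none lower. Nlrc5, the regulator of class I antigen presentation genes, was called too (14 UMIs in positive and 36 in other microglia-led nuclei of all libraries). It was not among the genes tested in the main test, nor between LPA and vehicle in other microglia-led nuclei. The count filter could thus have admitted it through the positive nuclei where it was high, so its call is a description only. The same could hold for Sp100 in this test.

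**Figure D5:**
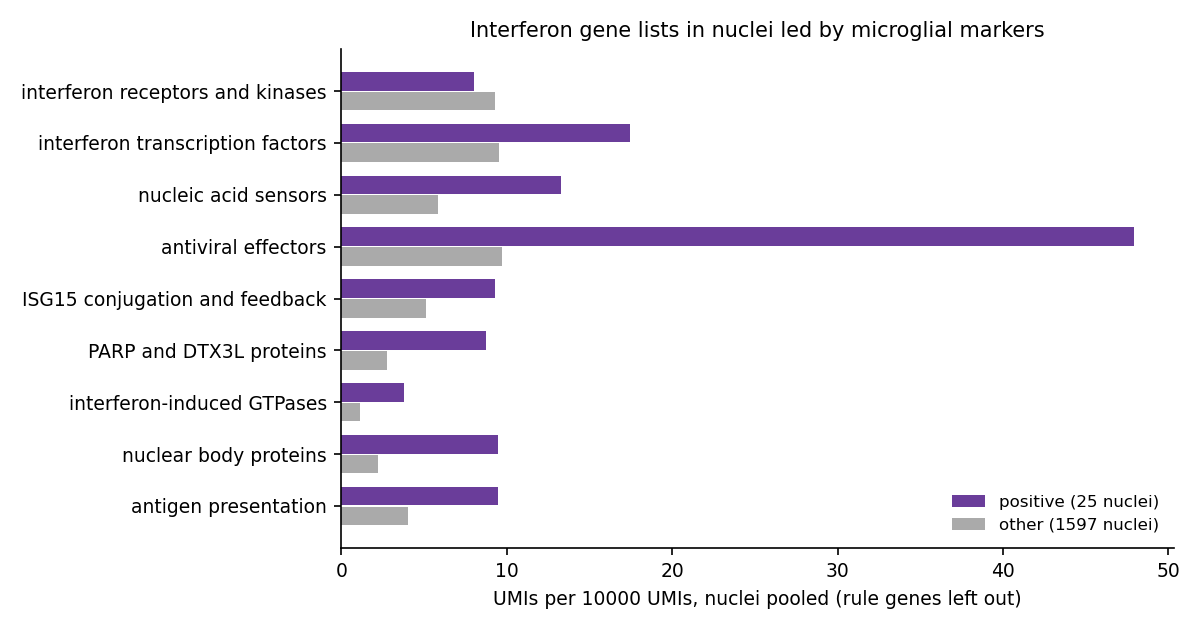
Bars give the UMIs per 10000 UMIs of each interferon gene list, rule genes left out, pooled over microglia-led positive nuclei (purple) and other microglia-led nuclei (grey). Antiviral effectors stood at 47.9 against 9.70, and only the receptors and kinases were lower in the positive nuclei, 7.99 against 9.28.

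Homeostatic microglial genes were not called in either direction. All 30 genes of the list were tested, 0 passed with edgeR or DESeq2, 9 were lower and none higher at an unadjusted p under 0.05 (3.24% of all genes tested were lower at that p), and the median log2 fold was -0.33, with Mertk, a receptor for the uptake of dying cells, the most abundant (327 UMIs). In microglia-led nuclei the list stood at 162 per 10000 UMIs in positive and 183 in other nuclei, a measure that the choice of these nuclei used. The activated list, without Spp1 and Gpnmb, had 0 of 18 tested genes called with edgeR or DESeq2, none at an unadjusted p under 0.05, and a median log2 fold of -0.02, and stood at 57.9 against 51.0 per 10000 UMIs in microglia-led nuclei, where 12 genes could be tested with a median log2 fold of -0.21. By library the microglia-led level was higher in LPA libraries 2 and 3 (83.9 against 56.8 and 96.3 against 72.3) and lower in LPA library 1 (27.1 against 55.1) and vehicle libraries 2 and 3 (23.3 against 30.2 and 4.82 against 26.2). Apoe was its most abundant gene. The 12 cell division genes had 55 UMIs in positive nuclei, or 0.814 per 10000 UMIs against 1.03 in other nuclei, and 1.09 against 1.39 in microglia-led nuclei.

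Markers of other immune cells were read as well. Border macrophage genes without F13a1 stood at 2.96 per 10000 UMIs in positive and 3.03 in other nuclei, and 0 of 3 tested genes passed with edgeR or DESeq2, although unadjusted p-values were under 0.05 for 1 gene that was higher and 1 that was lower. Monocyte, granulocyte and dendritic cell markers had 8 UMIs in the 63 nuclei, from 4 of 12 genes, and T and NK cell markers had 7, from 4 of 12 genes. In microglia-led nuclei the border macrophage level was 8.35 against 11.1 per 10000 UMIs. That of monocyte, granulocyte and dendritic cell markers was 0.545 against 0.166, and that of T and NK cell markers 0.363 against 0.0364. The last 2 levels rest on very few UMIs, as the 25 positive nuclei held 55081 in all. The former came from LPA libraries 1 and 2 only (0.565 and 3.35), the latter from LPA library 3 and vehicle library 3 only (0.482 and 4.82).

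LPA and vehicle were not tested within the positive nuclei, because vehicle libraries 1 and 3 held 4 and 3 of them, under the minimum of 5 set for a test. The values given above by library overlapped between the groups for Ddx60, Rnf213 and Trim30a.

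In the other microglial nuclei, where 3 LPA and 3 vehicle libraries could be tested, edgeR called 349 genes higher and 146 lower in LPA of 15237 tested (2.29% and 0.958%). The positive nuclei come from the same libraries, so this sets the level around them. Of 76 interferon genes tested 14 were higher in LPA and none lower, with a median log2 fold of 0.39 against -0.02 over all genes tested. Other lists moved in the same comparison: 4 of 7 tested border macrophage genes (Dab2, Maf, Mrc1 and Ms4a7) and 9 of 20 activated genes were called higher in LPA with none lower, 6 of 30 homeostatic genes were called higher and 1 lower, and 5 of 8 mural and meningeal genes were called lower. Both tested chemokine genes (Ccl3 and Ccl4), 2 of 8 ependymal and choroid plexus genes and 1 of 8 astrocyte genes (Gfap) were called higher, and 2 of 8 oligodendrocyte genes (Mobp and Mog) lower. Of the receptors and kinases, which the 76 genes do not include, 2 of 8 were called higher, Ifngr2 (log2 fold 0.62, adjusted p = 0.0223) and Il10rb (0.92, adjusted p = 0.00668). The part of these lists in the interferon values was not tested. Ddx60 was at 26.3, 30 and 33.1 CPM in LPA and 5.62, 9.65 and 11.5 in vehicle, without overlap, with a log2 fold of 1.77 ± 0.20 (SE, edgeR adjusted p = 0.00088). Ifi204 and Ifi207, DNA sensors of one gene family whose near-identical members can share reads, had log2 folds of 2.75 and 2.38 (adjusted p = 0.01 and 0.014). The genes with the lowest p were Anapc15, Mrc1, Stab1, Fli1 and Gm13710, higher in LPA, and Tbx15, Bnc2, Trabd2b, Slc6a20a and Dock5, lower. In microglia-led nuclei only, 54 interferon genes were tested and Ddx60 alone of them was called, with a log2 fold of 1.59 (edgeR adjusted p = 0.0001), against 1.91% of genes called higher over all 8912 tested. The interferon genes of these nuclei made up 40.4, 42.0 and 44.7 per 10000 UMIs in LPA and 37.2, 36.7 and 33.1 in vehicle.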

How the data were processed

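The deposited matrices held counts (UMIs per gene and barcode), which per the labels and the study's methods the authors made with Cell Ranger 4.0.0 on mm10 with pre-mRNA annotation. The files were filtered by the authors' cell calling only, and replicates were not pooled. Members and gene lists were chosen with earlier results of these data known. Barcodes with at least 300 genes and at most 1% mitochondrial UMIs were kept, without the authors' upper UMI limit, which was an alternative. Doublets were scored with Scrublet in scanpy 1.11.5 and kept in the main analysis. UMIs were summed by library and kind of nucleus and tested with edgeR 4.0.16 (TMM, filterByExpr, quasi-likelihood) without the 11 rule genes; DESeq2 1.42.0 was an alternative. The tests were checked on simulated data. Shares were compared with exact permutation tests over libraries, with exact (Clopper-Pearson) 95% intervals, and a count of 0 was given the limit of 3 counts; both cover counting error only. The study presents the values of each library as those of an individual mouse, so p-values between LPA and vehicle measure the spread between mice. Those between positive and other nuclei measure the spread of the differences within mice. They rest on sums of 3 to 22 positive nuclei per library, in which single nuclei can weigh heavily. Pairs of libraries shared 268 to 303 barcodes, none of a positive nucleus. Library totals were 48852970 to 65688644 UMIs, and positive nuclei of a library summed to 14876 to 233614. Genes were named by rule: interferon list genes called, the 10 lowest adjusted p per direction against other nuclei, the 5 lowest per direction between LPA and vehicle, and the 11 rule genes; others were chosen after their values were seen. A called interferon gene that enters the counts is not reported here by name. Alternatives changed the tool, filters, thresholds, depth, doublets, block and libraries. Promoter windows were RefSeq's (GRCm38.p6), and gene positions GENCODE M21's (GRCm38). Usp18, Oas2, Parp14 and Nlrc5 had no window in the table used here.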

Additional observations from a re-analysis of the deposited data

How the results depend on the processing

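The higher share of positive nuclei in LPA kept its direction in 22 of 24 alternatives run, between 0.0233 and 1.79 points, and no exact permutation p was under 0.1. The largest value was that without Scrublet calls, which removed most vehicle positive nuclei. These alternatives are not independent, since they include reruns with a library left out, and the replicate block leaves the difference unchanged. With each library left out in turn the difference over all microglial nuclei ranged from 0.403 to 1.67 points. With a limit of 3 rule UMIs it was 0.240 points, and with microglia-led nuclei thinned to 1500 UMIs, added after the data were seen, 0.277 points (exact permutation p = 0.8). In the thinned microglia-led nuclei 1 positive nucleus among 31 made the vehicle 3 share, and with each library left out in turn the difference ranged from -0.4028 (without vehicle library 1) to 1.21 points (without vehicle library 3) and was -0.1941 without LPA library 3.

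Of genes that differed between positive and other nuclei, 27 were called in the main test, 8 by DESeq2, 13 with at least 3 rule UMIs, 56 without the filter on low counts, 8 with no replicate block (the library block dropped), 4 in microglia-led nuclei (added later), 6 with nuclei thinned to 1500 UMIs and 151 without Scrublet calls (12 higher, 139 lower), and 20 to 48 with a library left out, the highest without vehicle library 1 and 42 without LPA library 3. Against the 7 interferon genes called in the main test, the totals were 4 by DESeq2, 16 without the filter, 4 with no replicate block, 2 in microglia-led nuclei and 4 when thinned, and 5 to 8 with a library left out. In microglia-led nuclei the counts were 3 to 8 genes and 2 to 6 interferon genes with a library left out, the highest without vehicle library 3, and DESeq2 gave 3 and 2. The cause of these changes was not tested, except that fewer genes could be tested in the smaller sets (2171 in microglia-led and 4547 in thinned nuclei) and more without the filter (24456).

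Between LPA and vehicle in other nuclei 495 genes were called, against 1105 without the filter, 993 when thinned, 312 without Scrublet calls and 225 to 454 with a library left out (313 without LPA library 1, 225 without LPA library 2, 266 without LPA library 3). The 14 interferon genes became 23 without the filter, 1 in microglia-led nuclei, 4 without Scrublet calls and 6 to 13 with a library left out (6 without LPA library 2 and 7 without LPA library 3). Same-numbered libraries had correlations of 0.0967, 0.0821 and -0.0733 in their deviations from the group means, and not every library correlated best with its own number, so the numbers are not taken as pairs. With the replicate block the share difference had p = 0.5 (exact permutation, smallest possible 0.25) and 462 genes and 13 interferon genes were called. Of 624 values of 44 named gene results under alternatives 496 stayed called, 128 did not and 0 changed direction. Between positive and other nuclei, Rnf213, Sp100 and Htr2c stayed called in every alternative that tested them. Testing LPA against vehicle within positive nuclei was not run under any alternative, because 2 vehicle libraries held under 5 of them.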

Other observations

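In 63 positive nuclei the rho between depth and UMIs of markers of other cells was 0.95, and that between depth and interferon UMIs was 0.44 (Spearman, across nuclei, which are not independent replicates). In the 25 microglia-led nuclei they were 0.43 and 0.38. By depth class the share of positive nuclei in LPA and vehicle was 1 of 198 (0.505%) and 0 of 316 below 1500 UMIs, 19 of 852 (2.23%) and 3 of 263 (1.14%) from 1500 to 3000, 7 of 416 (1.68%) and 4 of 350 (1.14%) from 3000 to 6000, 5 of 458 (1.09%) and 4 of 350 (1.14%) from 6000 to 12000, and 14 of 380 (3.68%) and 6 of 307 (1.95%) above. In microglia-led nuclei from 1500 to 3000 UMIs it was 19 of 810 (2.35%) in LPA and 2 of 217 (0.922%) in vehicle. From 3000 to 6000 UMIs it was 1 of 56 (1.79%) and 2 of 39 (5.13%). Below 1500 UMIs it was 1 of 182 (0.549%) and 0 of 307, and from 6000 to 12000 UMIs 0 of 8 and 0 of 3. These counts pool libraries and were not tested.

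Endothelial nuclei had 2 or more UMIs of Oasl2, Usp18 and Oas2 in 10 of 355 nuclei from LPA libraries (2.82%, exact 95% interval 1.36 to 5.12%) and in 2 of 367 from vehicle libraries (0.545%, 0.0661 to 1.95%). Astrocyte nuclei gave 26 of 4241 (0.613%) and 13 of 4469 (0.291%), and F13a1 nuclei 7 of 113 (6.19%) and 12 of 151 (7.95%). These counts pool the 3 libraries of a group and were not tested over libraries.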
